A study of Mus musculus with 40 samples.

Results

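Xenobiotic metabolism enzymes turn foreign and many internal compounds into forms that can leave the body. The gene set was defined by symbol: cytochromes P450 of families 1 to 3 (Cyp), glutathione S-transferases (Gst), flavin monooxygenases (Fmo), UDP-glucuronosyltransferases of families 1 and 2 (Ugt), sulfotransferases (Sult), epoxide hydrolases (Ephx) and aldehyde oxidases (Aox). The Gst classes were alpha, kappa, mu, pi, theta, omega and zeta. A gene was a member when it averaged at least 1 CPM, a count scaled to its library's total, over all 40 libraries. Levels of groups and libraries given further on are CPM with library totals adjusted by TMM scaling. Of 34843 symbols in the count table, 92 matched and 38 were members. The members were 18 of 23 matching glutathione S-transferases, 8 of 37 cytochromes P450, 3 of 6 flavin monooxygenases, 3 of 9 sulfotransferases, 3 of 4 epoxide hydrolases, 2 of 4 aldehyde oxidases and 1 of 9 UDP-glucuronosyltransferases. Just inside the limit lay Gstm3 at 1.08 CPM and Aox3 at 1.54 CPM, and just outside it Ugt1a6a at 0.96 CPM and Cyp2r1 at 0.69 CPM. The set is a list of enzyme families and not of cells. Its 3 marker genes, Cyp2f2, Gsta3 and Fmo1, were all members with counts in each of the 40 libraries.

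RNA came from subcutaneous white adipose tissue (sWAT) of mice, with 8 samples in each of 5 groups: HFD with semaglutide, HFD with tirzepatide, a diet switch from HFD to ND, HFD alone and ND alone. HFD stands for high-fat diet and ND for normal diet. Semaglutide is a peptide agonist of the glucagon-like peptide receptor, and tirzepatide also acts on the receptor of glucose-dependent insulinotropic polypeptide. The stated question was which genes stay altered and which return to their earlier level after these treatments. The labels give no strain, sex, age, dose or duration. They do not say whether the diet switch mice had received a drug before the switch, although the series title places a dietary intervention after incretin analogs, so each comparison with this group carries that doubt. Nor do they say that samples came from separate animals, and the p-values then reflect only how these samples scatter. Libraries are numbered group by group, so an effect of library order cannot be told apart from one of treatment.

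Detoxification is usually described in phases. In phase I, cytochromes P450 and flavin monooxygenases add oxygen to a compound, aldehyde oxidases oxidise aldehydes and nitrogen rings, and epoxide hydrolases open reactive epoxides with water. In phase II, glutathione S-transferases, sulfotransferases and UDP-glucuronosyltransferases attach glutathione, sulfate or glucuronic acid, and transporters then export the product. Liver is the main site, yet fat cells express many of these enzymes, which there also act on lipid peroxidation products, steroids and epoxides of fatty acids.

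Promoters are shown for the 3 members on which the results turn: Cyp2f2, which had the largest fold change of the set, Gsta3, which was below ND in the 4 other groups, and Gstt1, which was called in every comparison with HFD. Each runs over 300 bases, 250 before and 50 after the annotated transcript start, from RefSeq on build GRCm38.p6, printed 5′ to 3′ along the gene's strand. Capitals mark matches to 3 short patterns searched on both strands: TGACNNNGC, the antioxidant response element bound by NRF2, GCGTG, the core of the xenobiotic response element bound by the aryl hydrocarbon receptor, and TTATGNAA, the D-box bound by circadian PAR bZIP factors.
Cyp2f2, chr7:27119705-27120004, plus strand: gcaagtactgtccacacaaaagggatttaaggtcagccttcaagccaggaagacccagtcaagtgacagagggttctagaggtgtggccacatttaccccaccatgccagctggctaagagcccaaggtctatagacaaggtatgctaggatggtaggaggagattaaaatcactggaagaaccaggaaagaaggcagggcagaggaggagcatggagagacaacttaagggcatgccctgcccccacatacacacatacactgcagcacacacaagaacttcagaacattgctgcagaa
Gsta3, chr1:21240335-21240634, plus strand: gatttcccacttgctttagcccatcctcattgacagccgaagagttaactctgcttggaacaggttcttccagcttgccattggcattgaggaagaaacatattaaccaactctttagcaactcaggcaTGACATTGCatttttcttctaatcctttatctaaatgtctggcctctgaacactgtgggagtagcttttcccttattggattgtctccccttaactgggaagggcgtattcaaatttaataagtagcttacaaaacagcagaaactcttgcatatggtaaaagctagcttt
Gstt1, chr10:75797682-75797981, minus strand: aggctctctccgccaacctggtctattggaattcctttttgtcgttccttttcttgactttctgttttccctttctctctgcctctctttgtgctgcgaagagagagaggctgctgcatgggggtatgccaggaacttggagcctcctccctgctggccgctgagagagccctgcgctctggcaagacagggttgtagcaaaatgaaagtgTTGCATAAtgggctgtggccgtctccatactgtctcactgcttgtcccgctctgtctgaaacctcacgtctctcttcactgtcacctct
In Gsta3 the match to TGACNNNGC begins at position -121 from the start, and in Gstt1 the match to TTATGNAA, on the opposite strand, begins at -39. No pattern matched in the Cyp2f2 window. RefSeq entries were found for 32 members with 41 promoters in all. TGACNNNGC occurred in 4 of these 41 (9.76%), against 12.4% of all 32851 mouse promoters in the table. GCGTG occurred in 8 (19.5%, against 32.4%), and TTATGNAA in 1 (2.44%, against 3.38%). Besides Gsta3, the promoters with TGACNNNGC belonged to Cyp2j6, Gstm5 and Gstm7, and in Gstm5 that match overlapped 1 of its GCGTG matches. These are matches of letters and not measured binding sites.

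Library totals ran between 2115471 and 7445548 counts, with a median of 3765320, so 1 count was worth between 0.134 and 0.473 CPM. The members took between 0.156% and 0.297% of a library's counts. Adipocyte markers such as Adipoq and Plin1 were detected in all 5 groups, with medians of their summed level between 20053 and 22457 CPM. Skeletal muscle markers were high in 10 libraries (tirzepatide 1, 4, 5 and 7, diet switch 1, 3 and 6, HFD 4, ND 6 and 8), and B cell markers were high in 4 (semaglutide 1, 3 and 8, ND 5). Diet switch libraries 3, 4 and 7 scored above 50 on the main axis of variation within groups. Scores were taken from the mean of all 40 libraries, and only the side toward the diet switch group was searched. Values without these sets of libraries are given beside the calls of members that they end. In bulk tissue, fewer cells of a type and less RNA per cell cannot be told apart.

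Members were tested for group differences with edgeR's quasi-likelihood test, fitted on 15807 genes with Benjamini-Hochberg adjustment over all of them; a member was called at an adjusted p under 0.05. Of the 38 members, 35 passed the filter on low counts. Aox3, Cyp2t4 and Gstm3 did not, with group medians between 0.11 and 3.19 CPM. Over the 5 groups together, 17 of 35 members differed, where 33.5% of all genes tested did. Across the 10 pairs of groups, 20 members were called at least once and 15 in no pair by this fit. The share of all genes called in at least 1 pair was not computed, and the 33.5% belongs to the test over the 5 groups.

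The fold changes of all 35 members over both control groups are shown together, family by family.

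**Figure D1:**
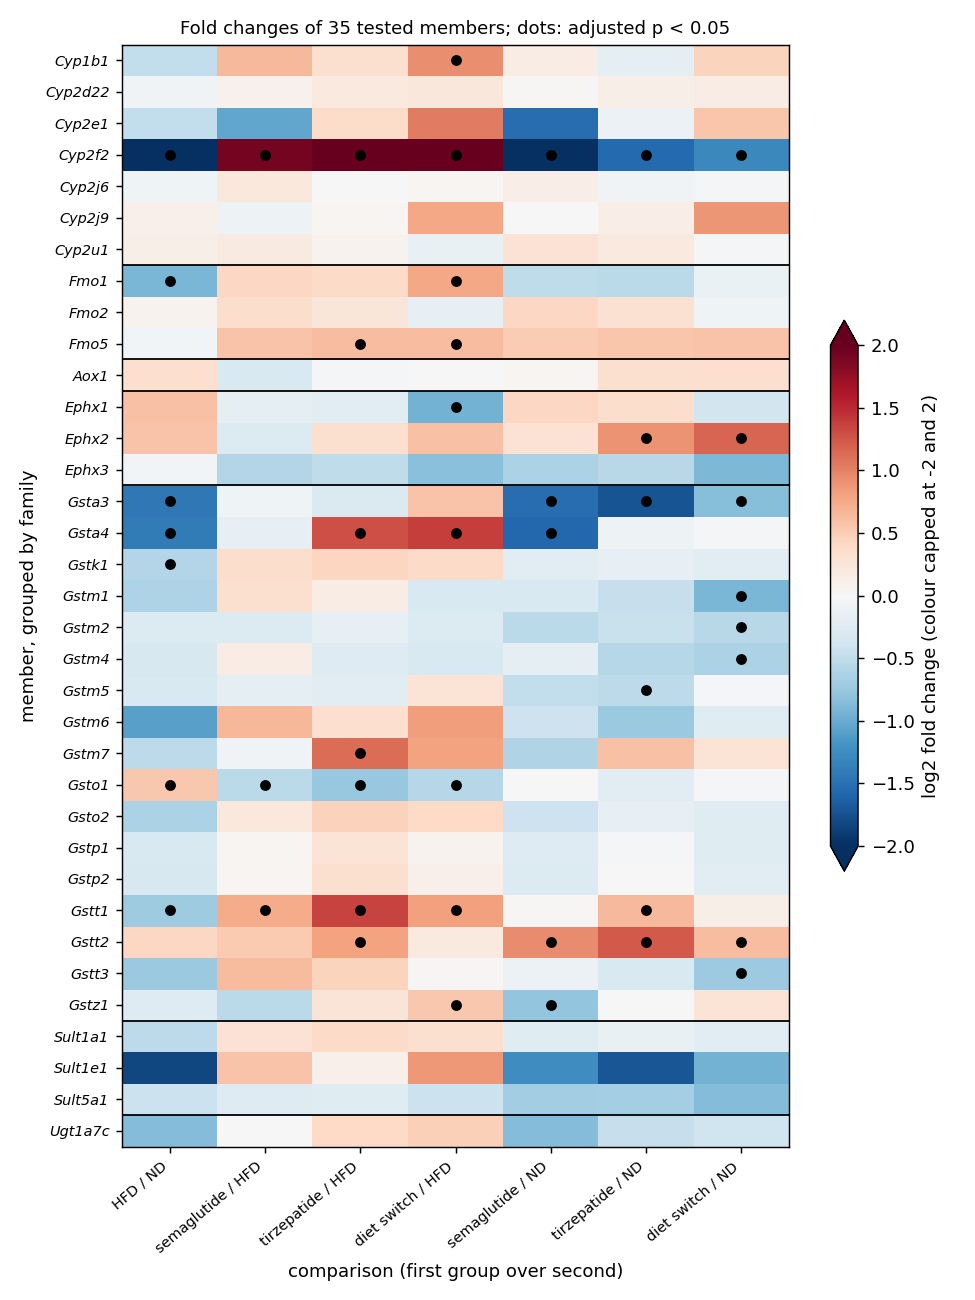
Log2 fold changes of the 35 tested members in 7 comparisons, with red for higher and blue for lower in the group named first, and colours capped at -2 and 2. Black dots mark adjusted p under 0.05. The dots of Cyp2f2 run through all 7 comparisons, blue against ND and red where a treatment is set against HFD.

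On HFD the set leaned downwards. Against ND, 6 members fell on HFD and 1 rose, so 7 of 35 were called, where 4.5% of all genes tested were. By direction, the 6 lower members are 17.1% of 35, against 1.68% of all genes lower, and the 1 higher member is 2.86%, against 2.83% of all genes higher. Those that fell were Cyp2f2, Gsta3, Gsta4, Fmo1, Gstt1 and Gstk1, a P450, a flavin monooxygenase and 4 transferases, and the 1 that rose was the transferase Gsto1. The median log2 fold change of the members was -0.32, with 8 of 35 above 0, and that of all genes was -0.04. Among members not called, Gstt3 had a log2 fold change of -0.75 ± 0.23 (SE; adjusted p = 0.055), and Sult1e1, the estrogen sulfotransferase, one of -1.82 ± 0.60 (adjusted p = 0.075). Ephx1, also not called, was higher on HFD than on ND (log2 0.58).

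Under both drugs and after the diet switch, most called members lay above HFD. Semaglutide against HFD gave 2 higher and 1 lower (3 of 35), where 4.15% of all genes were called, 1.52% higher and 2.63% lower. Tirzepatide against HFD gave 6 higher and 1 lower (7 of 35), where 20.5% of all genes were called, 9.79% higher and 10.7% lower. The diet switch against HFD gave 7 higher and 2 lower (9 of 35), where 23.8% of all genes were called, 12.8% higher and 10.9% lower. For tirzepatide and the switch the share of members called was thus near that of all genes. Cyp2f2 and Gstt1 rose and Gsto1 fell in all 3 comparisons. These comparisons share the HFD libraries, so their agreement is no independent observation. Median log2 fold changes of the members were 0.09 for semaglutide, 0.27 for tirzepatide and 0.32 for the switch, and those of all genes were 0.05, 0.03 and 0.03. With semaglutide, 1 member was called over HFD without semaglutide 1 or without HFD 5. With tirzepatide 4 were called without the muscle-high libraries, which include tirzepatide 1, 4, 5 and 7 and HFD 4. All genes called in that comparison fell as well, from 3246 to 1666.

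Set against ND, each treatment still had members called. With semaglutide 4 were lower and 1 higher (5 of 35), where 2.64% of all genes were called, 0.905% higher and 1.73% lower. With tirzepatide 3 were lower and 3 higher (6 of 35), where 10.1% were called, 4.3% higher and 5.77% lower. After the switch 6 were lower and 2 higher (8 of 35), where 14.8% were called, 7.97% higher and 6.82% lower. Of the 7 members called on HFD, those still called the same way against ND were Cyp2f2, Gsta3 and Gsta4 with semaglutide and Cyp2f2 and Gsta3 in both the tirzepatide and the diet switch group. Called against ND in a treatment but not on HFD alone were Gstt2 and Gstz1 with semaglutide and Ephx2, Gstm5 and Gstt2 with tirzepatide. After the switch these were Ephx2, Gstm1, Gstm2, Gstm4, Gstt2 and Gstt3. Of the last, Gstm1 and Gstt3 were called lower on HFD than on ND by DESeq2, so they need not be particular to the switch. Without diet switch 3, 4 and 7 there were 0 members called for the switch against ND, and 112 genes in place of 2338. These 3 libraries were picked on the side of the axis toward the diet switch, so some loss of its calls could come from that choice. Leaving out 1 library gave 5 members without ND 1, 3 or 4 or diet switch 3 or 7, and 4 without diet switch 4.

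Cyp2f2 encodes a P450 best known from mouse lung, where it oxidises naphthalene, and it was called in all 7 comparisons with HFD or ND. Its lowest, median and highest levels were 3.18, 11.8 and 42.8 CPM with semaglutide, 17.5, 41.6 and 70.9 CPM with tirzepatide, and 29.2, 48.3 and 80.2 CPM after the diet switch. They were 0.22, 3.84 and 9.32 CPM on HFD and 52.2, 118 and 248 CPM on ND. Every HFD library lay below every ND, tirzepatide and diet switch library, and every semaglutide library lay below every ND library. The log2 fold change on HFD over ND was -4.98 ± 0.52 (SE, n = 8 per group; adjusted p = 3.63e-08), a level 31.5-fold lower.
Against HFD, Cyp2f2 was 3.77-fold higher with semaglutide (log2 1.91 ± 0.51, adjusted p = 0.023), 10.8-fold higher with tirzepatide (3.43 ± 0.51, adjusted p = 9.76e-06) and 12.9-fold higher after the switch (3.69 ± 0.51, adjusted p = 3.28e-06). All treated groups stayed below ND, at log2 -3.07 ± 0.46 with semaglutide (adjusted p = 2.93e-05), -1.55 ± 0.42 with tirzepatide (adjusted p = 0.017) and -1.29 ± 0.42 after the switch (adjusted p = 0.035). The semaglutide rise over HFD lost its call when semaglutide 1 or 2 or HFD 2, 3, 5 or 6 was left out (adjusted p 0.050 to 0.081), without the B cell-high libraries (1.95, adjusted p = 0.064), and when only these 2 groups were fitted (1.91, adjusted p = 0.074). The diet switch call against ND was lost without diet switch 3, 4, 5 or 7 or ND 1, 3 or 4 (log2 -1.30 to -1.09, adjusted p 0.052 to 0.089), without all of diet switch 3, 4 and 7 (-1.11, adjusted p = 0.28) and without the 10 muscle-high libraries (-1.45, adjusted p = 0.079). The tirzepatide call against ND was also lost without the muscle-high libraries (-1.51, adjusted p = 0.14).

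Because Cyp2f2 is also a liver and lung gene, markers of both tissues were read beside it. The summed level of 7 hepatocyte markers in the table ran from 6.42 to 25.7 CPM with semaglutide, 4.93 to 34.2 CPM with tirzepatide, 11.4 to 33.8 CPM after the switch, 4.84 to 20.7 CPM on HFD and 18.6 to 68.3 CPM on ND. Most of it was Alb, the albumin gene, at medians of 8.04 CPM with semaglutide, 6.25 CPM with tirzepatide, 13.3 CPM after the switch, 10.5 CPM on HFD and 35.8 CPM on ND. Serpina1a differed less, with medians between 3.37 CPM after the switch and 5.57 CPM on ND. Group medians of Apoa1, Apoa2, Ttr and Fgb were at most 0.543 CPM. The highest Apoa1 and Apoa2 values were in tirzepatide libraries (7.71 and 6.03 CPM), and Fga was at 0 in all libraries. Alb was below ND in all 4 groups, at log2 -2.07 with semaglutide, -2.37 with tirzepatide, -1.501 after the switch and -2.05 on HFD, and it was not called in any treatment against HFD. Of 6 lung epithelium markers 3 were in the table, and their sum did not pass 2.45 CPM in any library. What part these cells might have in the Cyp2f2 values was not tested.

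**Figure D2:**
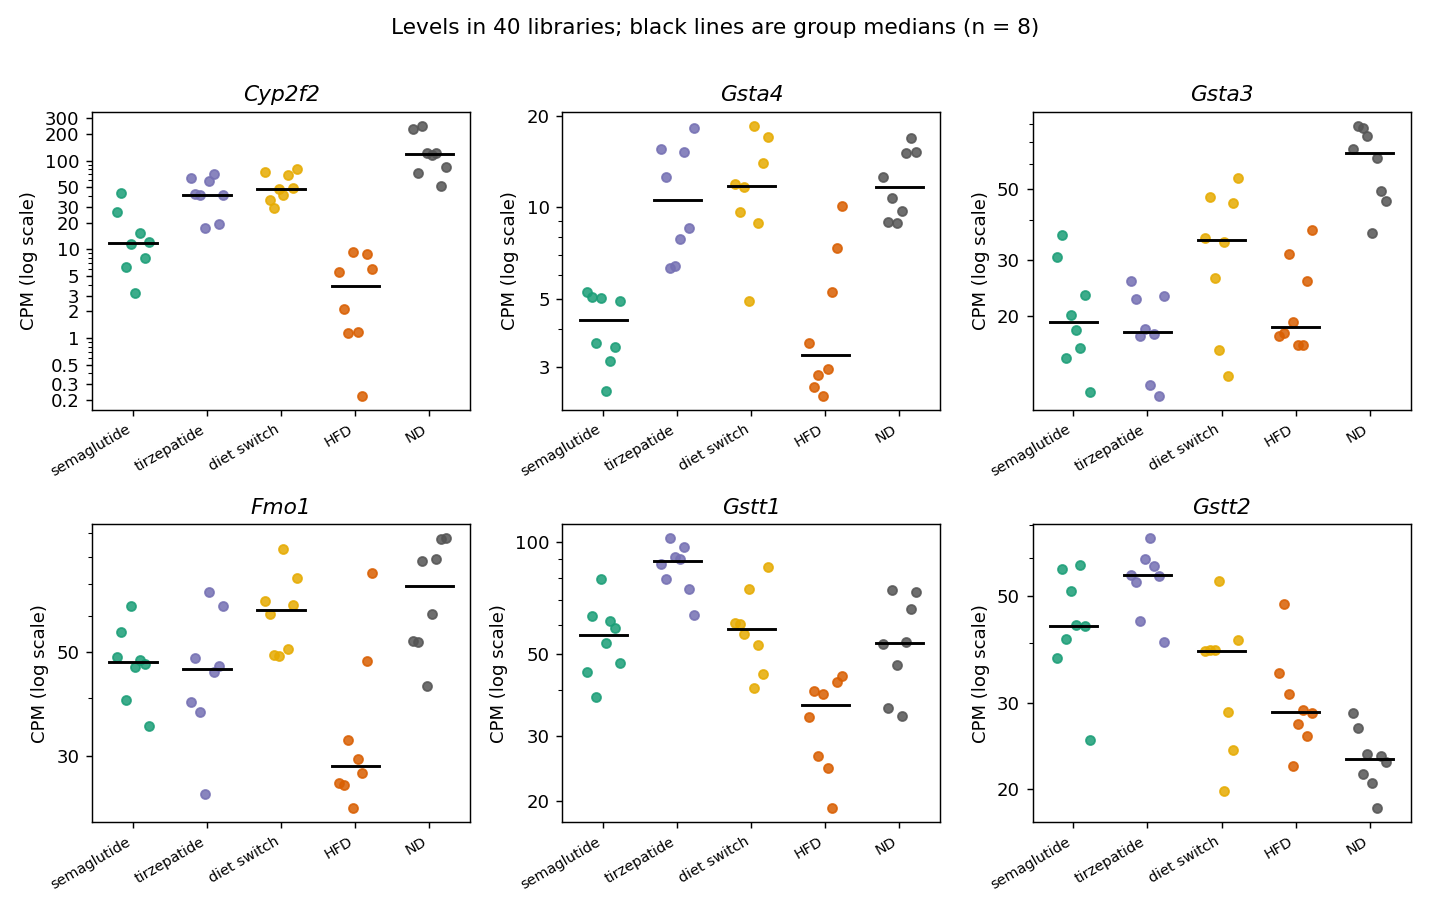
CPM (log scale) of Cyp2f2, Gsta4, Gsta3, Fmo1, Gstt1 and Gstt2 in each of the 40 libraries by group, with black lines at group medians. Cyp2f2 on HFD (0.22 to 9.32 CPM) lies below every ND library (52.2 to 248 CPM), and Gsta3 with semaglutide and tirzepatide lies below every ND library.

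Among the other phase I members, Fmo1, a flavin monooxygenase that oxidises nitrogen and sulfur atoms in drugs, had a lowest, median and highest level of 34.8, 47.7 and 63.0 CPM with semaglutide, 24.9, 46.1 and 67.3 CPM with tirzepatide, and 49.2, 61.8 and 83.4 CPM after the switch. On HFD they were 23.1, 28.6 and 73.9 CPM, and on ND 42.4, 69.5 and 88.1 CPM. All groups overlapped, and 7 of 8 HFD libraries were below the ND median. Its log2 fold change was -0.92 ± 0.20 on HFD over ND (adjusted p = 0.0020) and 0.78 ± 0.20 after the switch over HFD (adjusted p = 0.0033). The differences with semaglutide and tirzepatide were called neither against HFD nor against ND in the fit of all 5 groups. Fmo2, its neighbour on chromosome 1, was called in no pair of groups by that fit.

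Fmo5, a flavin monooxygenase that acts as a Baeyer-Villiger enzyme, had medians of 19.6 CPM with semaglutide, 19.0 CPM with tirzepatide, 18.7 CPM after the switch, 13.4 CPM on HFD and 12.9 CPM on ND. It was higher than HFD with tirzepatide (log2 0.61 ± 0.22, adjusted p = 0.044) and after the switch (0.62 ± 0.22, adjusted p = 0.037). The tirzepatide call was lost without any 1 of 10 libraries (HFD 1, 5, 6 or 8, tirzepatide 2 to 7; log2 0.50 to 0.63, adjusted p up to 0.11) and without the muscle-high libraries (0.68, adjusted p = 0.095). The diet switch call was lost without HFD 1, 5, 6 or 8 or diet switch 4 or 7 (0.51 to 0.60, adjusted p up to 0.10) and without all of diet switch 3, 4 and 7 (0.38, adjusted p = 0.38). Cyp1b1, which oxidises polycyclic aromatic hydrocarbons and estradiol, had medians of 9.28 CPM with tirzepatide, 12.2 CPM after the switch, 6.30 CPM on HFD and 10.3 CPM on ND, and ran from 4.75 to 14.7 CPM with semaglutide. Its level after the switch was above HFD (log2 0.94 ± 0.27, adjusted p = 0.011), a call lost without the muscle-high libraries (0.68, adjusted p = 0.15) and without diet switch 3, 4 and 7 (0.73, adjusted p = 0.14).

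Cyp2e1, the P450 that oxidises ethanol and acetone, spread widely within the tirzepatide group. Its lowest, median and highest levels were 45.7, 75.3 and 165 CPM with semaglutide, 25.1, 146 and 718 CPM with tirzepatide and 168, 324 and 833 CPM after the switch. On HFD they were 59.2, 162 and 446 CPM, and on ND 148, 281 and 381 CPM. The pair called by edgeR's quasi-likelihood test was semaglutide against the diet switch, at log2 -2.07 ± 0.48 (adjusted p = 0.0046), and all 8 semaglutide libraries lay below all 8 diet switch libraries. Without diet switch 3, 4 and 7 this was -1.82 (adjusted p = 0.068). DESeq2 also called semaglutide below ND and tirzepatide above semaglutide, and the fit of only the 2 groups called semaglutide below ND.

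The epoxide hydrolases did not move together. Ephx1, the microsomal enzyme that opens epoxides of drugs and pollutants, had 42.2, 53.9 and 72.3 CPM (lowest, median, highest) with semaglutide, 23.8, 52.0 and 76.1 CPM with tirzepatide and 14.9, 34.1 and 43.3 CPM after the switch. On HFD the values were 44.7, 58.9 and 89.0 CPM, and on ND 27.2, 38.8 and 55.1 CPM. Every diet switch library was below every HFD library, with a log2 fold change of -0.94 ± 0.19 (adjusted p = 3.68e-04). On HFD over ND it was 0.58 ± 0.19 (adjusted p = 0.068). Ephx1 shares its last bases with another annotated gene on the same strand, Gm36961, so its counts may hold reads of that gene.

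Ephx2, the soluble enzyme that hydrolyses epoxides of fatty acids, was highest after the switch and with tirzepatide. Its lowest, median and highest levels were 56.0, 83.2 and 146 CPM with semaglutide, 97.4, 148 and 218 CPM with tirzepatide and 109, 157 and 276 CPM after the switch. They were 64.6, 97.7 and 194 CPM on HFD and 26.9, 80.7 and 118 CPM on ND. The groups overlapped, and all 8 libraries of tirzepatide and of the switch were above the ND median. Over ND the log2 fold change was 0.89 ± 0.25 with tirzepatide (adjusted p = 0.018) and 1.17 ± 0.25 after the switch (adjusted p = 0.0024), and it was 0.57 ± 0.25 on HFD (adjusted p = 0.21). Without diet switch 3, 4 and 7 the switch value was 0.89 (adjusted p = 0.10).

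**Figure D3:**
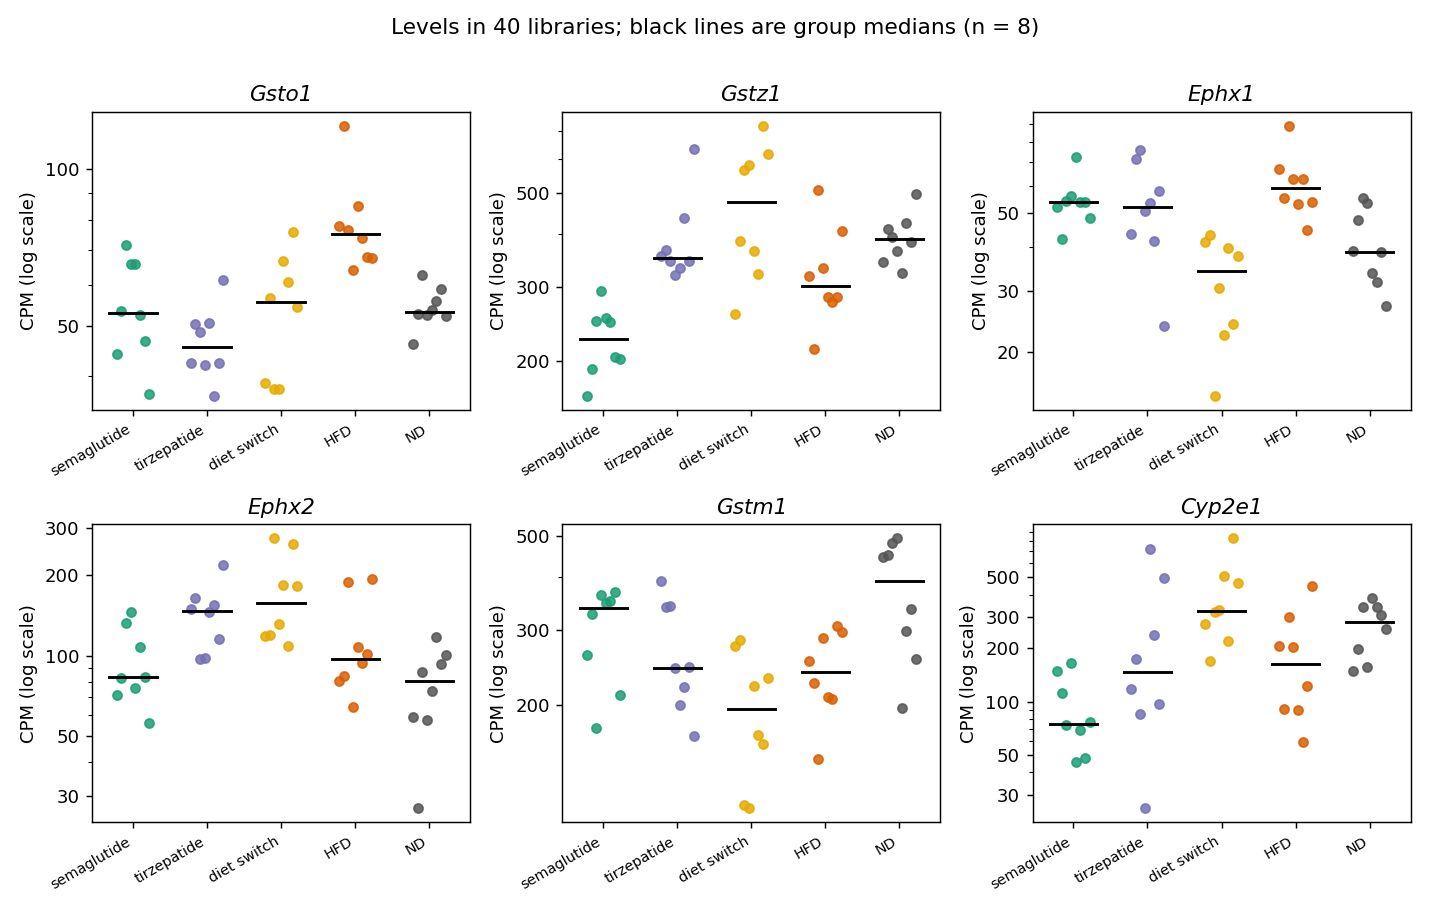
CPM (log scale) of Gsto1, Gstz1, Ephx1, Ephx2, Gstm1 and Cyp2e1 in each of the 40 libraries by group, with black lines at group medians. Gsto1 on HFD (64.0 to 121 CPM) lies above every tirzepatide and ND library, and Ephx1 after the switch (14.9 to 43.3 CPM) lies below every HFD library.

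Both alpha class transferases fell on HFD, and they differed afterwards. Gsta3, which conjugates glutathione to electrophiles, had 11.6, 19.2 and 35.8 CPM (lowest, median, highest) with semaglutide, 11.3, 17.9 and 25.8 CPM with tirzepatide and 13.0, 34.7 and 54.0 CPM after the switch. It had 16.3, 18.5 and 37.4 CPM on HFD and 36.3, 64.7 and 78.7 CPM on ND. All semaglutide and tirzepatide libraries were below all ND libraries, and HFD overlapped ND only at its highest library. Log2 fold changes over ND were -1.52 ± 0.24 with semaglutide (adjusted p = 4.92e-05), -1.72 ± 0.25 with tirzepatide (adjusted p = 7.99e-06), -0.85 ± 0.24 after the switch (adjusted p = 0.014) and -1.43 ± 0.24 on HFD (adjusted p = 1.06e-04). No treatment was called against HFD for this gene in the fit of all libraries. Without the muscle-high libraries, Gsta3 was called above HFD after the switch. The switch call over ND was lost without the muscle-high libraries (-0.69, adjusted p = 0.099) and without diet switch 3, 4 and 7 (-0.74, adjusted p = 0.17). An antisense neighbour, Gm28836, overlaps the end of Gsta3, and whether the counting used strand is not given in the sources used here.

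Gsta4, the transferase best known for clearing the lipid aldehyde hydroxynonenal, had 2.50, 4.27 and 5.29 CPM with semaglutide, 6.31, 10.6 and 18.3 CPM with tirzepatide and 4.92, 11.8 and 18.5 CPM after the switch. It had 2.40, 3.28 and 10.1 CPM on HFD and 8.87, 11.6 and 16.9 CPM on ND. Every semaglutide library was below every tirzepatide and every ND library. Against HFD the log2 fold change was 1.29 ± 0.28 with tirzepatide (adjusted p = 9.46e-04) and 1.38 ± 0.28 after the switch (adjusted p = 4.16e-04), and with semaglutide the gene was not called. Against ND it was -1.56 ± 0.29 with semaglutide (adjusted p = 3.48e-04) and -1.40 ± 0.28 on HFD (adjusted p = 9.89e-04). Tirzepatide was above semaglutide by 1.46 ± 0.29 (adjusted p = 0.0013), and semaglutide below the diet switch by a log2 fold change of -1.54 ± 0.29 (adjusted p = 3.15e-04). These Gsta4 calls held in all alternatives tried.

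The theta class genes Gstt1, Gstt2 and Gstt3 lie side by side on chromosome 10, and their values differed. Gstt1, which conjugates halogenated solvents, had 38.3, 56.3 and 79.8 CPM with semaglutide, 63.6, 88.9 and 103 CPM with tirzepatide and 40.6, 58.4 and 85.6 CPM after the switch. It had 19.1, 36.4 and 43.6 CPM on HFD and 34.0, 53.5 and 74.2 CPM on ND. Every tirzepatide library was above every HFD library. Log2 fold changes over HFD were 0.74 ± 0.18 with semaglutide (adjusted p = 0.0083), 1.36 ± 0.18 with tirzepatide (adjusted p = 3.44e-07) and 0.83 ± 0.18 after the switch (adjusted p = 6.26e-04), and on HFD over ND the value was -0.71 ± 0.18 (adjusted p = 0.0091). With tirzepatide Gstt1 was also above ND (0.65 ± 0.17, adjusted p = 0.013), so it was the member called on HFD that was called the other way against ND. Without the muscle-high libraries the HFD call over ND and the tirzepatide call over ND were lost (-0.66 and 0.73, adjusted p 0.081 and 0.079).

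Gstt2 was above ND in each treated group. Its lowest, median and highest levels were 25.2, 43.5 and 57.9 CPM with semaglutide, 40.1, 55.2 and 66.0 CPM with tirzepatide and 19.8, 38.6 and 53.8 CPM after the switch. They were 22.2, 28.8 and 48.1 CPM on HFD and 18.2, 23.0 and 28.7 CPM on ND. Every tirzepatide library was above every ND library. Log2 fold changes over ND were 0.94 ± 0.17 with semaglutide (adjusted p = 3.17e-04), 1.22 ± 0.17 with tirzepatide (adjusted p = 6.39e-06) and 0.61 ± 0.17 after the switch (adjusted p = 0.013), and 0.42 ± 0.17 on HFD (adjusted p = 0.18). Over HFD it was called with tirzepatide alone in the fit of all libraries (0.80 ± 0.17, adjusted p = 5.66e-04). DESeq2 also called Gstt2 above HFD with semaglutide, as did the fits without the B cell-high libraries and without diet switch 3, 4 and 7. The tirzepatide call over HFD was lost without the muscle-high libraries (0.60, adjusted p = 0.068), and the switch call over ND without those (0.56, adjusted p = 0.091), without diet switch 4 (0.50, adjusted p = 0.052) or without diet switch 3, 4 and 7 (0.52, adjusted p = 0.15). Gstt3 was below ND after the switch (-0.72 ± 0.23, adjusted p = 0.032), a call lost without any 1 of 9 libraries (diet switch 3, 4, 6, 7 or 8, ND 1, 2, 3 or 4; adjusted p up to 0.10) and without all of diet switch 3, 4 and 7 (-0.64, adjusted p = 0.26). On ND, Gstt3 ran from 10.3 to 59.8 CPM, with libraries 1 to 4 above the others, and after the switch from 15.9 to 29.8 CPM. Its last bases are shared with Gm20441 on the same strand.

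The 7 mu class genes form a cluster on chromosome 3, and 6 of them were tested. Gstm1 had 176, 337 and 369 CPM with semaglutide, 169, 244 and 390 CPM with tirzepatide, 114, 195 and 284 CPM after the switch, 149, 239 and 306 CPM on HFD and 196, 391 and 494 CPM on ND. All 8 libraries of the diet switch were below the ND median, and so were all 8 of each other group. After the switch the log2 fold change of Gstm1 over ND was -0.91 ± 0.20 (adjusted p = 0.0029). DESeq2 and the fit of only the 2 groups also called Gstm1 lower on HFD than on ND. Gstm2 (-0.55 ± 0.16, adjusted p = 0.017) and Gstm4 (-0.63 ± 0.22, adjusted p = 0.042) were also below ND after the switch. Medians of Gstm2 were 75.1 CPM with semaglutide, 78.8 CPM with tirzepatide, 72.0 CPM after the switch, 89.8 CPM on HFD and 105 CPM on ND. Within ND, libraries 1 to 4 lay above the others for both Gstm1 and Gstm2. Without diet switch 3, 4 and 7 none of these 3 was called (Gstm1 -0.65, Gstm2 -0.45 and Gstm4 -0.68, adjusted p 0.14, 0.23 and 0.19). The Gstm2 call was also lost without ND 2 (-0.47, adjusted p = 0.053) and without the muscle-high libraries (-0.53, adjusted p = 0.064), and the Gstm4 call without any 1 of 12 libraries (ND 1, 3, 4, 6 or 7, diet switch 2 to 8; adjusted p up to 0.12) and without the muscle-high libraries (-0.73, adjusted p = 0.069).

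Gstm7 was called against ND in no group. It had 1.90, 3.93 and 5.70 CPM with semaglutide, 5.20, 7.99 and 13.4 CPM with tirzepatide, 2.29, 6.37 and 15.1 CPM after the switch, 1.76, 4.15 and 6.82 CPM on HFD and 4.24, 5.78 and 7.67 CPM on ND. Tirzepatide was above HFD (log2 1.11 ± 0.33, adjusted p = 0.012) and above semaglutide (1.19 ± 0.33, adjusted p = 0.016), with all 8 tirzepatide libraries above the other group's median each time. Without the muscle-high libraries these were 1.09 (adjusted p = 0.075) and 1.12 (adjusted p = 0.10). Gstm5 was below ND with tirzepatide (-0.52 ± 0.16, adjusted p = 0.032), at medians of 35.7 and 53.3 CPM, and this call was lost without any 1 of 7 libraries (tirzepatide 3, 4, 5 or 7, ND 1, 3 or 4; adjusted p up to 0.090) and without the muscle-high libraries (-0.50, adjusted p = 0.19). Of the 50-base words in the last 500 bases of the transcripts, 23.0% were shared with other genes for Gstm1, 11.8% for Gstm6 and 10.1% for Gstm2, so some of their reads could have been split or dropped in counting.

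**Figure D4:**
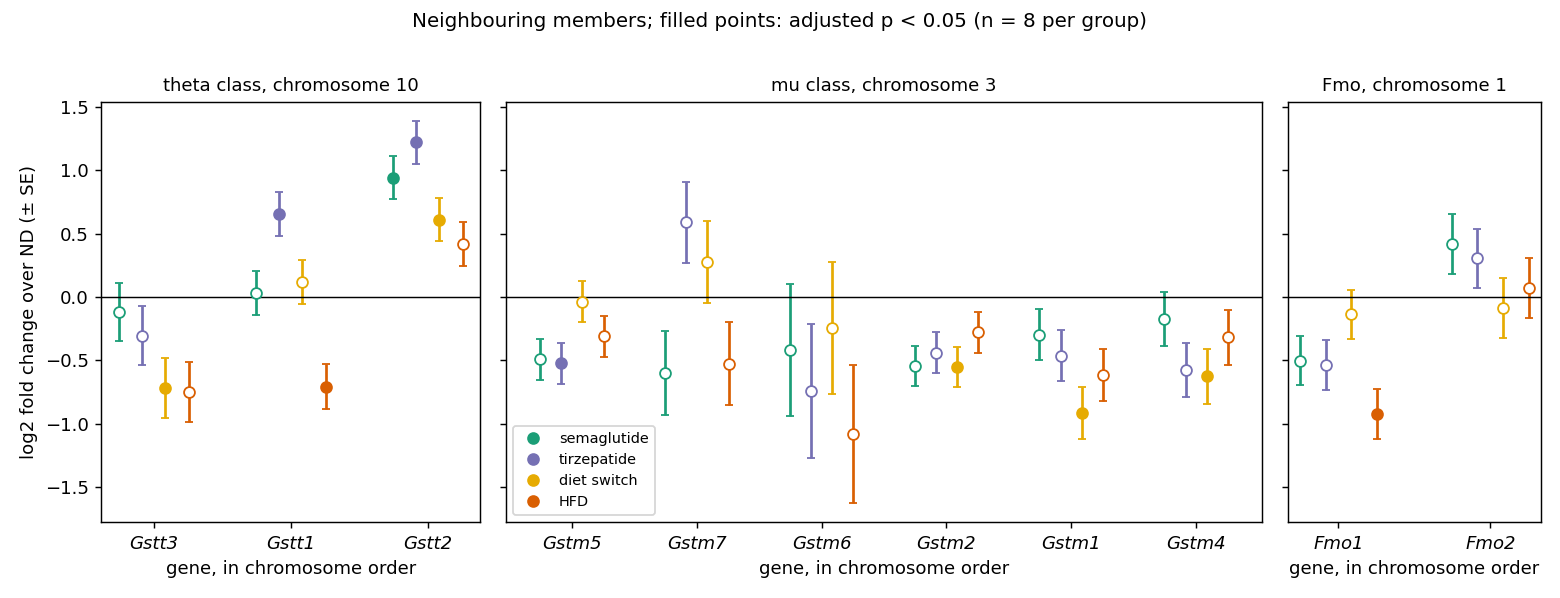
Log2 fold changes over ND (± SE, n = 8 per group) of neighbouring members in chromosome order, for semaglutide, tirzepatide, the diet switch and HFD, with filled points at adjusted p under 0.05. Gstt2 lies above 0 in all 4 groups (0.42 to 1.22), next to Gstt1, which is at -0.71 on HFD and 0.65 with tirzepatide; Gstm3 was not tested and is not drawn.

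Gsto1, an omega class enzyme that reduces dehydroascorbate and mixed disulfides, was the member that rose on HFD. It had 37.0, 53.0 and 71.5 CPM with semaglutide, 36.6, 45.6 and 61.4 CPM with tirzepatide, 37.8, 55.5 and 75.6 CPM after the switch, 64.0, 75.1 and 121 CPM on HFD and 46.2, 53.3 and 62.7 CPM on ND. Every HFD library was above every ND and every tirzepatide library. Over ND the log2 fold change on HFD was 0.54 ± 0.15 (adjusted p = 0.021). Over HFD it was -0.54 ± 0.15 with semaglutide (adjusted p = 0.027), -0.75 ± 0.15 with tirzepatide (adjusted p = 3.09e-04) and -0.57 ± 0.15 after the switch (adjusted p = 0.0048). Without HFD 2, its highest library, the HFD value over ND was 0.43 (adjusted p = 0.095). The semaglutide call was lost without any 1 of 5 libraries (semaglutide 1, 7 or 8, HFD 2 or 5; -0.52 to -0.42, adjusted p up to 0.10) and without the B cell-high libraries (-0.50, adjusted p = 0.10), and the switch call without the muscle-high libraries (-0.48, adjusted p = 0.058). An antisense gene, Cfap43, overlaps the end of Gsto1.

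Gstz1, the zeta class enzyme that isomerises maleylacetoacetate in tyrosine breakdown, was lowest with semaglutide. Its lowest, median and highest levels were 165, 226 and 294 CPM with semaglutide, 320, 350 and 634 CPM with tirzepatide and 259, 474 and 719 CPM after the switch. They were 214, 301 and 506 CPM on HFD and 324, 388 and 495 CPM on ND. Every semaglutide library was below every tirzepatide and every ND library. The log2 fold change of semaglutide over ND was -0.79 ± 0.18 (adjusted p = 0.0051), and over the diet switch -1.07 ± 0.18 (adjusted p = 8.48e-05). Tirzepatide was above semaglutide by 0.79 ± 0.18 (adjusted p = 0.0035). Over HFD the switch was called at 0.54 ± 0.18 (adjusted p = 0.020), but not without HFD 2 (0.47, adjusted p = 0.057) or diet switch 7 (0.43, adjusted p = 0.074), nor without diet switch 3, 4 and 7 (0.25, adjusted p = 0.46).

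Gstk1, the kappa class enzyme of mitochondria and peroxisomes, fell on HFD (-0.59 ± 0.17, adjusted p = 0.034), with medians of 36.4 CPM with semaglutide, 39.7 CPM with tirzepatide, 36.5 CPM after the switch, 29.9 CPM on HFD and 45.5 CPM on ND. All 8 HFD libraries were below the ND median. The call was lost without any 1 of 8 libraries (HFD 1, 2, 3, 5 or 6, ND 3, 6 or 8; log2 -0.59 to -0.53, adjusted p up to 0.088) and without the muscle-high libraries (-0.51, adjusted p = 0.18).

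Between treatments, tirzepatide stood above semaglutide for 5 members and below it for none (5 of 35), where 10% of all genes were called, 4.11% higher and 5.92% lower. These were Cyp2f2 (1.51 ± 0.44, adjusted p = 0.026), Gsta4, Gstm7, Gstz1 and Gstt1 (0.62 ± 0.17, adjusted p = 0.018). Of these, Gsta4 and Gstz1 were called both without the B cell-high and without the muscle-high libraries, and the other 3 in neither case: Cyp2f2 had 1.47 and 1.66, Gstm7 1.09 and 1.12, and Gstt1 0.44 and 0.63 (adjusted p up to 0.14). The Cyp2f2 call was also lost without semaglutide 7 (1.41, adjusted p = 0.050).
Semaglutide against the diet switch gave 2 higher and 5 lower members (7 of 35), where 13.3% of all genes were called, 6.29% higher and 7% lower. Lower were Cyp2e1, Cyp2f2 (-1.78 ± 0.44, adjusted p = 0.0074), Gsta4, Gstz1 and Ephx2 (-0.87 ± 0.25, adjusted p = 0.017). Higher were Ephx1 (0.77 ± 0.19, adjusted p = 0.0064) and Gstm1 (0.61 ± 0.20, adjusted p = 0.037). Without diet switch 3, 4 and 7 only Cyp2f2, Gsta4 and Gstz1 were called, and Ephx1 had 0.55 (adjusted p = 0.15), Ephx2 -0.59 (adjusted p = 0.25) and Gstm1 0.35 (adjusted p = 0.43). Ephx2 lost its call without diet switch 3 (adjusted p = 0.055) or 7 (adjusted p = 0.050) and without the B cell-high libraries (-0.80, adjusted p = 0.086), and Gstm1 without any 1 of 9 libraries (semaglutide 2, 4, 5, 6 or 7, diet switch 3, 4, 6 or 7; adjusted p up to 0.093) and without the muscle-high libraries (0.56, adjusted p = 0.12).
Tirzepatide against the diet switch gave 0 called members by edgeR's quasi-likelihood test, where 0.399% of all genes were called; 8 had an unadjusted p under 0.05, and DESeq2 called 3, Ephx1, Gstt2 and Gsta3. Log2 differences of the 35 members lay between -0.87 and 0.72. The nearest to the threshold were Ephx1 (0.72 ± 0.19, adjusted p = 0.074) and Gstt2 (0.61 ± 0.17, adjusted p = 0.085). Leaving out 1 library gave between 0 and 3 calls, with 3 without tirzepatide 8, 2 without diet switch 4 and 1 without diet switch 2 or 6.

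The remaining members had no call in any pair by edgeR's quasi-likelihood test in the fit of all 5 groups. Among them were the sulfotransferases Sult1a1, Sult1e1 and Sult5a1. Sult1e1 had 0.86, 2.70 and 6.52 CPM with semaglutide, 0, 1.04 and 9.49 CPM with tirzepatide, 0.66, 3.47 and 6.45 CPM after the switch, 0, 1.47 and 4.64 CPM on HFD and 2.77, 7.05 and 12.3 CPM on ND. Its groups overlapped, and DESeq2 called Sult1e1 lower on HFD than on ND and with tirzepatide than on ND. DESeq2 also called Sult5a1 lower after the switch than on ND, and the fit of only the 2 groups called Sult1a1 and Sult1e1 lower on HFD than on ND. Aox1, the aldehyde oxidase, and Ugt1a7c, whose last exons all Ugt1a genes share, were not called. Nor were the pi class genes Gstp1 and Gstp2, which share 78.0% and 55.2% of the 50-base words near their transcript ends with other genes, so their separate values are uncertain. The other members with no call were Cyp2d22, Cyp2j6, Cyp2j9, Cyp2u1, Ephx3, Fmo2, Gstm6 and Gsto2.

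Other genes of the pathway were read from lists of partners, sensors and further enzymes. Of 7 tested P450 redox partners none was called on HFD over ND. Por, the reductase that feeds electrons to P450 enzymes, was above HFD with tirzepatide (log2 0.80 ± 0.16, adjusted p = 3.45e-04) and after the switch (0.60 ± 0.16, adjusted p = 0.0053). Cyb5b, an outer mitochondrial membrane cytochrome b5, was below HFD with semaglutide (-0.96 ± 0.19, adjusted p = 0.0013), tirzepatide (-1.61 ± 0.19, adjusted p = 6.25e-08) and after the switch (-1.24 ± 0.19, adjusted p = 7.51e-06). In all, 1 of 7 partners was lower with semaglutide, and 1 higher and 2 lower with tirzepatide and after the switch.

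Of 15 tested NRF2 target genes, none was called on HFD over ND. Lower than HFD were 1 under semaglutide, 2 under tirzepatide and 2 after the switch, and none was higher. Of all genes, 2.63%, 10.7% and 10.9% were lower. The gene in common was Osgin1, an oxidative stress growth inhibitor (-1.11 ± 0.27, -1.43 ± 0.27 and -2.02 ± 0.28 in these 3 groups, adjusted p = 0.0088, 1.66e-04 and 1.51e-06). In a list of 12 tested xenobiotic sensors and regulators of NRF2 targets, Maff rose on HFD over ND (1.45 ± 0.44, adjusted p = 0.045). Over HFD, 4 rose and 1 fell with tirzepatide, where 20.5% of all genes were called. After the switch 3 rose, where 23.8% of all genes were called in either direction. Among those that rose were Bach1, a repressor of NRF2 targets (0.81 ± 0.18 and 0.68 ± 0.18), and, after the switch, Nfe2l2, which encodes NRF2 (0.59 ± 0.14, adjusted p = 0.0021).

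Among 13 genes of glutathione synthesis and the membrane transferases, 2 rose on HFD over ND: Mgst2 (1.12 ± 0.20, adjusted p = 2.72e-04) and Ltc4s (1.13 ± 0.22, adjusted p = 5.88e-04), both of which can join glutathione to leukotriene A. Against HFD, 2 were lower under semaglutide, 4 under tirzepatide and 2 after the switch, where 2.63%, 10.7% and 10.9% of all genes were lower. Mgst2 was among the lower genes each time, at -0.69 ± 0.20, -1.29 ± 0.20 and -0.61 ± 0.20. Of 7 esterases and paraoxonases, Pon1 fell on HFD over ND (-2.43 ± 0.56, adjusted p = 0.0045) and was above HFD with tirzepatide (1.97 ± 0.56, adjusted p = 0.010) and after the switch (1.53 ± 0.57, adjusted p = 0.046). Pon1 is made mainly in liver and carried on high-density lipoprotein. Alb, 1 of the 7 hepatocyte markers read above, was also below ND on HFD but was not called over HFD in any treatment. What part hepatocytes might have in the Pon1 values was not tested. Of 11 P450s outside families 1 to 3, 2 rose on HFD over ND, Cyp4b1 (1.07 ± 0.24, adjusted p = 0.0034) and Cyp4v3 (0.73 ± 0.19, adjusted p = 0.012). Of 14 genes of other conjugation and cofactor supply 1 fell on HFD over ND, Tst (-1.43 ± 0.43, adjusted p = 0.039), a sulfur transferase that detoxifies cyanide, and of 24 alcohol, aldehyde and carbonyl enzymes 1 rose and 1 fell, Maoa (0.73 ± 0.19, adjusted p = 0.016) and Maob (-0.57 ± 0.16, adjusted p = 0.025). Of 13 drug transporters none was called on HFD over ND; over ND, Abcg2, an efflux pump, was higher with tirzepatide (0.70 ± 0.19, adjusted p = 0.014) and after the switch (0.67 ± 0.19, adjusted p = 0.015).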

How the data were processed

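The authors deposited a table of raw counts per gene from 40 libraries of subcutaneous white adipose tissue, made with a Lexogen QuantSeq kit and sequenced on an Illumina instrument, per the labels. Reads were placed on build mm10, per the submitters' processing notes. The sources used here name no aligner, counter or annotation and do not say whether strand was used. A second table of normalized values was not used, and 16 of its columns match no sample.

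For the membership rule and the worth of a count, CPM were computed from the deposited counts and library totals. Group and library levels in CPM, marker sums included, used library totals adjusted by the TMM factors of the edgeR fit. Group differences came from edgeR 4.0.16 (R 4.3.3, limma 3.58.1) with TMM scaling, the default filter on low counts and a robust quasi-likelihood fit of all 40 libraries, with Benjamini-Hochberg adjustment over 15807 genes; calls were made at an adjusted p under 0.05. Fold changes put the group named first over the other. The procedure was tested on simulated data. Members and gene lists were chosen with earlier results of these data known. Genes are named by fixed rules: all members may be named, the 3 marker genes and 12 members with the smallest p over the 5 groups get values in all groups, and from each further list up to 3 called genes per comparison, smallest adjusted p first.

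Alternatives were DESeq2 1.42.0, DESeq2 size factors, no filter, a filter of 10 counts in 8 libraries, the 2 compared groups alone, the replicate number as a block and each library left out. Leaving out the muscle-high libraries, the B cell-high libraries and diet switch 3, 4 and 7 was chosen after seeing the data. No libraries within a group agreed within sampling noise (smallest chi-square per degree of freedom 4.21). Coordinates and overlaps at gene ends are from GENCODE M21 on GRCm38.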

Additional observations from a re-analysis of the deposited data

Results flagged for a closer look

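In 75 groups of values, each of 8 libraries of 1 member, 3 had a single library far from the rest, where chance gives about 1 in 20 groups. Gstz1 was 633.7 CPM in tirzepatide 8, Gsto1 was 121.2 CPM in HFD 2, and Gstm2 was 125.2 CPM in tirzepatide 1, each the highest of its group.

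Treatments differed from each other in the tests of the difference itself. Tirzepatide over semaglutide had log2 fold changes of 1.456 for Gsta4, 0.7928 for Gstz1, 1.188 for Gstm7, 0.6192 for Gstt1 and 1.513 for Cyp2f2. Semaglutide over the diet switch had -1.075 for Gstz1, -1.542 for Gsta4, -2.075 for Cyp2e1, 0.769 for Ephx1, -1.778 for Cyp2f2, -0.871 for Ephx2 and 0.6137 for Gstm1.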

How the results depend on the processing

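Of 57 member calls, 27 held under every alternative, 30 were lost in at least 1, and 0 changed direction. Counts of members called moved by more than 1.5 times as follows. Fitting only the 2 groups gave 11 on HFD over ND. DESeq2 gave 5 with semaglutide over HFD and 3 with tirzepatide over the diet switch. Without the muscle-high libraries there were 4 with tirzepatide over HFD, 5 after the switch over ND and 2 with tirzepatide over semaglutide. All genes called in these 3 comparisons fell as well, from 3246 to 1666, 2338 to 1692 and 1584 to 382. Without the B cell-high libraries there were 2 with tirzepatide over semaglutide and 1 with tirzepatide over the switch. Without diet switch 3, 4 and 7 there were 5 with semaglutide over HFD, 0 after the switch over ND, 3 with semaglutide over the switch and 2 with tirzepatide over the switch. With each library left out in turn, counts ran from 1 to 4 with semaglutide over HFD, 4 to 9 after the switch over ND and 0 to 3 with tirzepatide over the switch. Libraries of the same replicate number share only that number: the mean correlation of their deviations was 0.031 over 80 pairs, and 11 of 40 libraries correlated best with their own number. With the replicate block, 7 members were called on HFD over ND, and over HFD 2 with semaglutide, 7 with tirzepatide and 10 for the diet switch. In the comparisons over ND it called 5 members with semaglutide, 9 with tirzepatide, Fmo1 and Sult1e1 among them, and 9 after the switch, Sult5a1 among them, and the Cyp2f2 call with semaglutide over HFD was lost (1.79, adjusted p = 0.056). With no filter, calls were lost for Gstk1 on HFD over ND, Gsto1 with semaglutide and Fmo5 with tirzepatide and after the switch over HFD, Gstm5 with tirzepatide over ND, Cyp2f2 and Gstm4 after the switch over ND, and Gstm1 with semaglutide over the switch. Besides Cyp2f2 with semaglutide over HFD, fitting only the 2 groups lost Gstt3 and Gstm4 after the switch over ND and Gstm1 with semaglutide over the switch. Gstm3 and Cyp2t4, which the main filter left out, were called in some alternatives: Cyp2t4 on HFD over ND with the filter of 10 counts in 8 libraries, and Gstm3 after the switch over ND with no filter. Such members near 1 CPM rest on few counts.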

Other observations

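Within ND, noticed after the values were seen, libraries 1 to 4 and 5 to 8 lay apart for 3 members. Gstm1 had 446, 451, 480 and 494 CPM in libraries 1 to 4 and 196, 298, 335 and 256 CPM in libraries 5 to 8. Gstm2 had 120, 158, 153 and 144 CPM in libraries 1 to 4 and 61.5, 89.5, 90.9 and 82.5 CPM in libraries 5 to 8. Gstt3 had 59.8, 39.8, 53.8 and 47.1 CPM in libraries 1 to 4 and 10.3, 22.9, 27.6 and 23.5 CPM in libraries 5 to 8. These members were called below ND after the switch, and those calls use the ND libraries of both sets. The order is that of library numbers, and no test was run.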
